A study of Mus musculus with 9 samples.

Results

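The 44 interferon response and major histocompatibility complex (MHC) class I genes described here were taken from 5301 genes measured by RNA-seq in mouse 6DT1 cells. They are the protein-coding genes of the table whose symbols match families such as Ifi, Isg, Oas, Irf, Stat, H2, Tap and Psmb8 to Psmb10. The rule for a symbol uses no value, but the families were chosen with earlier results of these data known, and only genes that the table holds could enter. In the GENCODE M21 annotation 168 protein-coding genes carry such a symbol, and the other 124 were not analysed here. The 6DT1 line comes from a mammary tumor of an MMTV-Myc mouse, in which a mammary tumor virus promoter drives Myc, and is syngeneic to the FVB/NJ strain. The shControl cells carried a scramble hairpin, and the shH4 and shH6 knockdown (KD) cells each carried 1 lentiviral hairpin against Resf1, a retroelement silencing factor. All 3 groups were kept in puromycin at 10 ug/ml, were labelled wildtype and were collected 24 h after seeding, with no interferon among the listed treatments. The methods describe triplicate seeding of each condition at equal density and name no separate transductions. The 3 libraries of a group are therefore taken as dishes of 1 transduced population. An effect of the hairpin and one of that population cannot be told apart, and p-values measure only how much such dishes vary.

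Values were normalized counts per gene, that is read counts per gene scaled by a factor for each library. They were compared as log2(value + 1) with limma, and a gene was called at an adjusted p-value under 0.05 over all 5301 genes. A difference given below is on that log2 scale, where the added 1 shrinks the change of a gene with few reads. By estimate the listed genes took 10.5 M to 19.9 M reads per library. Resf1 itself had 1591, 1553 and 1610 in shControl, 976, 953 and 1016 in shH4 and 1120, 1113 and 1130.2 in shH6, with no overlap between the groups. All 5301 genes lay on the same side of shControl in both hairpins, so the table holds genes already selected for a difference from shControl. For that reason the comparisons with shControl describe the members, and their p-values are not independent of the selection. The comparison of shH6 with shH4 leaves the shControl libraries out of the difference. In bulk RNA, fewer cells of a type and less RNA per cell cannot be told apart.

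Interferons are cytokines that cells release on meeting viral or other foreign nucleic acid. Type I interferon acts on its target genes mainly through the interferon-stimulated response element (ISRE), which STAT2 and IRF9 serve, and interferon gamma mainly through the gamma-activated sequence (GAS). The induced genes encode nucleic acid sensors, antiviral enzymes and the MHC class I pathway, in which the proteasome cuts peptides, TAP carries them into the endoplasmic reticulum, and class I heavy chains with beta-2 microglobulin present them on the cell surface.

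The promoters of the members were read from RefSeq on GRCm38.p6, from 250 bases before to 50 bases after the start, and 38 of the 44 members had one. The reads themselves were aligned to mm39 according to the submitters' processing notes, and no coordinate was converted. The windows below show the ISRE or GAS core of some members that are described further on, with the core in capitals. They are an early ubiquitin-like effector, a pair of oligoadenylate synthetases, viperin, an interferon-inducible GTPase, the class I light chain and, with a GAS core, a factor that was higher in KD cells.
Isg15 (ISRE core, chr4:156200871-156200900, minus strand): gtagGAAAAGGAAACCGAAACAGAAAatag
Oas1a (ISRE core, chr5:120907523-120907552, minus strand): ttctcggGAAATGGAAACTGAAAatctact
Oas3 (ISRE core, chr5:120777715-120777744, minus strand): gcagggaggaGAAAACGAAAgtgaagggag
Rsad2 (ISRE core, chr12:26456553-26456582, minus strand): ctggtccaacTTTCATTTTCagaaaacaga
Igtp (ISRE core, chr11:58199512-58199541, plus strand): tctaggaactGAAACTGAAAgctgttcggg
B2m (ISRE core, chr2:122147538-122147567, plus strand): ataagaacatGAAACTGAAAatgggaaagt
Irf1 (GAS core, chr11:53769914-53769943, plus strand): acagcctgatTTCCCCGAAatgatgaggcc

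The ISRE core was searched as GAAA, any 2 bases, then GAAA, on both strands, and overlapping matches were merged. It was found in 14 of the 38 member promoters (36.8%), against 3.93% of the 3765 listed genes with a promoter and 3.99% of 27025 promoters in the reference. The GAS core, TTCNNNGAA, reads the same on both strands and was found in 10 member promoters (26.3%), against 8.21% of listed genes and 9.55% of all promoters. Matches to both cores overlapped in Bst2. In Isg15 a run of matches covered 22 bases, the longest among the members. All 14 members with an ISRE core were lower than shControl in both hairpins, with a median difference of -0.48 (shH4) and -0.43 (shH6). The 24 members without it had medians of -0.25 and -0.26, with 17 lower and 7 higher. For the GAS core the medians went the other way, at -0.29 and -0.20 for the 10 members with it and -0.33 and -0.36 for the 28 without. A match is a run of letters and was not tested as a binding site.

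**Figure D1:**
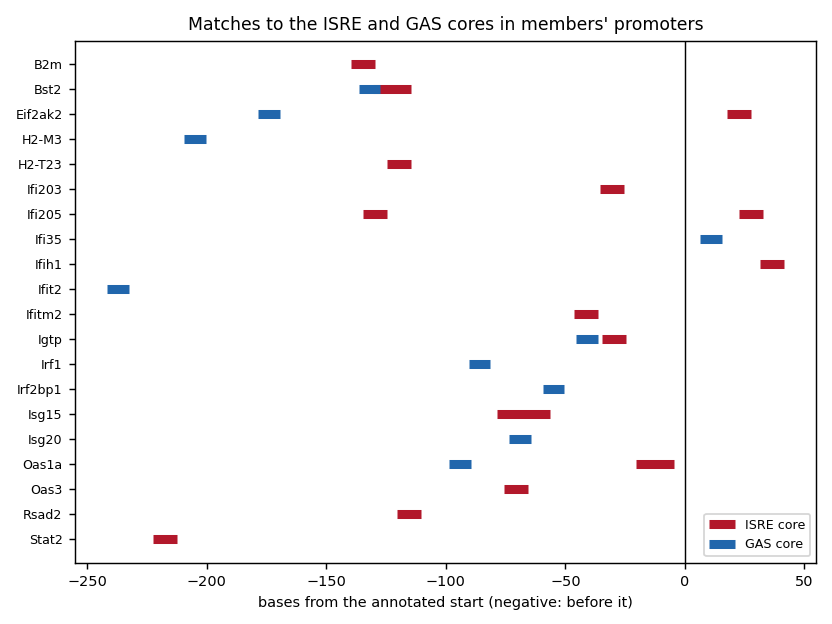
Position of each match to the ISRE core (red) and the GAS core (blue) in the member promoters that hold one, in bases from the annotated start (x axis), with 1 row per gene. Most ISRE matches lie before the start, and those of Eif2ak2 and Ifih1 and 1 of the matches of Ifi205 lie after it.

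Most members were lower in both KD lines. In shH4, 35 members were called lower and 7 higher, so that 42 of 44 (95.5%) were called, where 95.7% of all listed genes were called (46.5% lower and 49.2% higher). In shH6, 31 were called lower and 8 higher, or 39 of 44 (88.6%), where 96.1% of listed genes were called (46.9% lower and 49.1% higher). The share called was near that of the table in shH4 and below it in shH6. At a common upper quartile the balance over all genes turned, with 55.8% of the calls lower in shH4 and 54.7% in shH6, in place of 48.6% and 48.8%. At that scaling 36 members were called lower and 5 higher in shH4, and 34 lower and 6 higher in shH6. In the deposited scaling 36 of 44 members (81.8%) lay below shControl in both hairpins, against 48.8% of listed genes. In both hairpins 30 members were called lower and 7 higher, against 44.6% and 47.2% of listed genes. The 6 KD libraries all lay below the 3 shControl libraries for 30 members and above them for 7, against 42.8% and 43.5% of listed genes. The median difference of the members was -0.33 in shH4 and -0.36 in shH6, and that of all genes was 0.10 and 0.088.

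For 28 members the difference was under 1.5-fold in both hairpins. For 6 it passed 2-fold in at least 1 hairpin, namely Nlrc5, Dhx58, Ifi205, Ifi44, Oas1a and Rsad2, all lower. In at least 1 hairpin 45.45% of members differed by more than 0.5 in either direction, against 21.83% of listed genes. Per kilobase of transcript, the shControl levels ran from 8814 for B2m and 8239.7 for H2-D1 down to 3.43 for Nlrc5. Members lay on 16 chromosomes, with 8 on chromosome 17, which carries the MHC, and 4 oligoadenylate synthetase genes on chromosome 5.

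**Figure D2:**
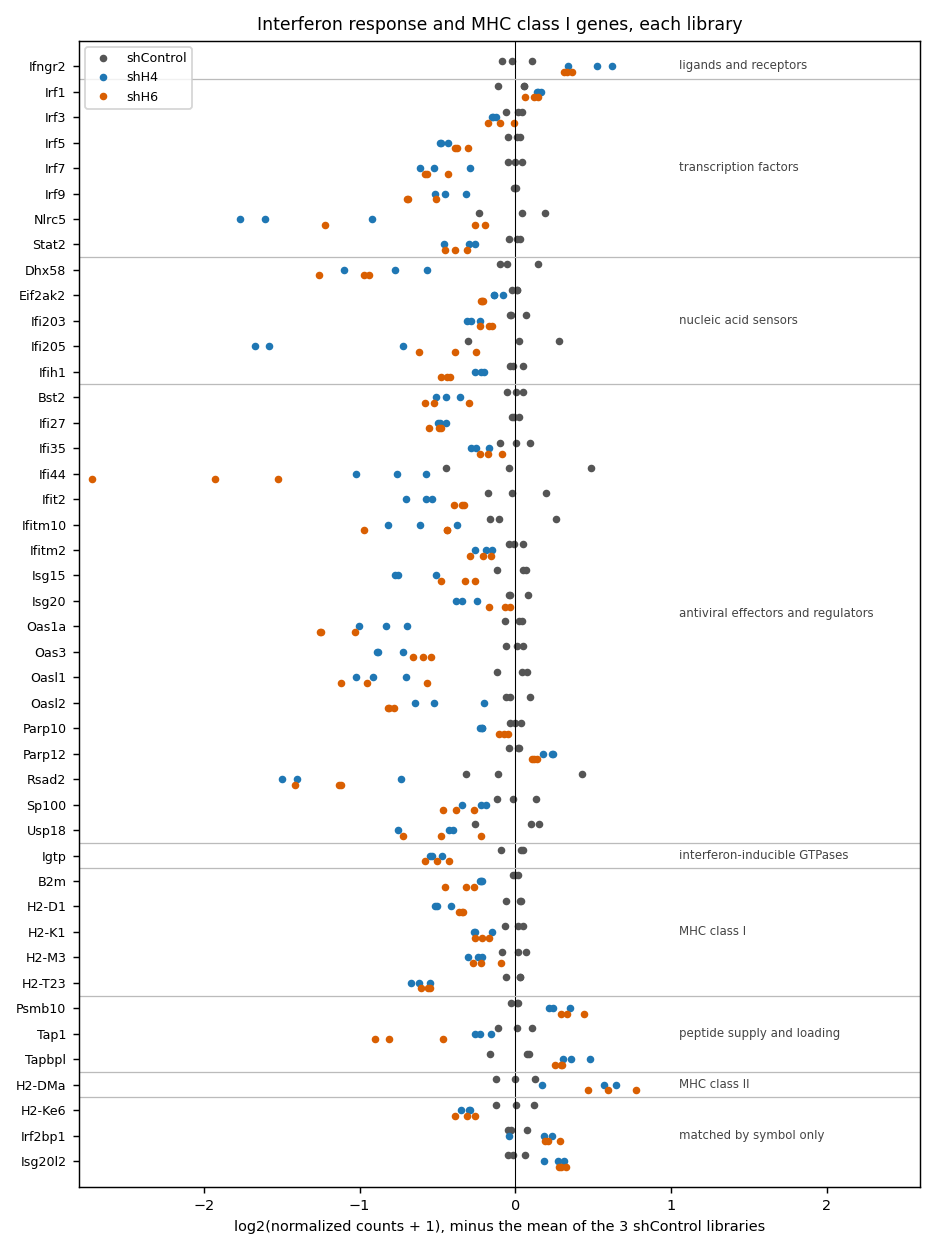
Each of the 44 members (rows, grouped by role) in each library, as log2(normalized counts + 1) minus the mean of the 3 shControl libraries (x axis), with shControl in grey, shH4 in blue and shH6 in orange. Points of both KD lines lie left of 0 for most rows and right of 0 for 8, among them Ifngr2, Psmb10 and Tapbpl, save 1 shH4 point of Irf2bp1.

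Ifngr2, the second chain of the interferon gamma receptor, was the only listed ligand or receptor gene, and it rose. Its normalized counts were 195, 223 and 204 in shControl, 298, 262 and 319 in shH4 and 266, 261 and 257 in shH6. Every KD library was above every shControl library. The difference from shControl was 0.49 (SE 0.087, adjusted p = 1.1e-04) in shH4 and 0.33 (SE 0.087, adjusted p = 0.0022) in shH6 by limma.

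Of 7 transcription factor genes, 6 were lower and 1 was higher than shControl in both hairpins. In shH4 all 7 were called, where 95.7% of listed genes were. In shH6 4 were called lower and 1 higher (71.4% called), where 96.1% of listed genes were called. Stat2 and Irf9, which encode factors that act at the ISRE, both fell. Stat2 had 234, 223 and 230.4 in shControl, 191, 186 and 166 in shH4 and 175, 167 and 185 in shH6. The 3 shControl libraries lay above all KD libraries, and the difference was -0.34 (SE 0.089, adjusted p = 0.0023) in shH4 and -0.38 (SE 0.089, adjusted p = 9.3e-04) in shH6 by limma. Irf9 had 394, 396 and 392 in shControl, 276, 317 and 289 in shH4 and 244, 277 and 243 in shH6. The KD libraries reached 74.5% and 64.6% of the shControl mean, with a difference of -0.43 (SE 0.078, adjusted p = 1.5e-04) in shH4 and -0.63 (SE 0.078, adjusted p = 3.4e-06) in shH6 by limma. Irf9 overlaps Rnf31 on the same strand in the annotation, so reads of the pair may not be separable.

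Irf7, the amplifier of type I interferon genes, had 111, 115 and 119 in shControl, 79.8, 74.7 and 93.9 in shH4 and 76.5, 85.0 and 77.3 in shH6. All KD libraries were below shControl, with a difference of -0.47 (SE 0.12, adjusted p = 0.0022) in shH4 and -0.53 (SE 0.12, adjusted p = 0.0010) in shH6 by limma. Irf5, a factor downstream of Toll-like receptors, was at 72.4% and 78.2% of the shControl mean and was called lower in both. Irf3, the factor that starts interferon transcription, moved least of these, with 2049, 1941 and 2082 in shControl, 1822, 1857 and 1833 in shH4 and 1793, 2010.4 and 1889 in shH6. It fell in shH4 but not past the threshold in shH6, where 1 of the 3 libraries lay within the shControl range, with a difference of -0.14 (SE 0.045, adjusted p = 0.0089) in shH4 and -0.094 (SE 0.045, adjusted p = 0.055) in shH6 by limma. With 1 library left out, the shH6 difference of Irf3 ran from -0.054 without shH6 replicate 1 to -0.14 without shH6 replicate 2, and it was called without shH6 replicate 2 and without shControl replicate 2 (-0.12). Irf3 was also called in shH6 at a common upper quartile (-0.15) and with library weights (-0.15). On the opposite strand Irf5 overlaps Tnpo3 and Irf7 overlaps Phrf1, both of them listed genes.

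Nlrc5, the transactivator of MHC class I genes, had the lowest shControl level of the list. Its normalized counts were 21.9, 29.6 and 26.6 in shControl, 6.90, 13.2 and 7.82 in shH4 and 21.4, 10.5 and 22.4 in shH6. The shH4 libraries were all below shControl, while the shH6 libraries overlapped with it. The difference was -1.43 (SE 0.32, adjusted p = 7.5e-04) in shH4 and -0.56 (SE 0.32, adjusted p = 0.099) in shH6 by limma, and with as few as 7 estimated reads in a library it is measured with little precision. With 1 library left out, the shH6 difference ran from -0.23 without shH6 replicate 2 to -0.74 without shH6 replicate 3, and it was not called. Irf1, a factor induced by interferon gamma whose promoter holds the GAS core shown above, went the other way. Its normalized counts were 1040.1, 1168 and 1169 in shControl, 1261, 1245 and 1238 in shH4 and 1173, 1224 and 1242 in shH6. All 6 KD libraries lay above shControl, the lowest of them close to it. The difference was 0.15 (SE 0.050, adjusted p = 0.010) in shH4 and 0.11 (SE 0.050, adjusted p = 0.046) in shH6 by limma, and the call was lost in both hairpins without shControl replicate 1 (0.10 and 0.054) and when libraries were scaled to a common upper quartile (0.090 and 0.058). In shH6 it was also lost without any 1 of the shH4 libraries (0.11 each), without shH6 replicate 2 (0.10) and without shH6 replicate 3 (0.092), as well as with library weights (0.067), with no trend and in a fit of the compared groups alone (0.11 each).

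**Figure D3:**
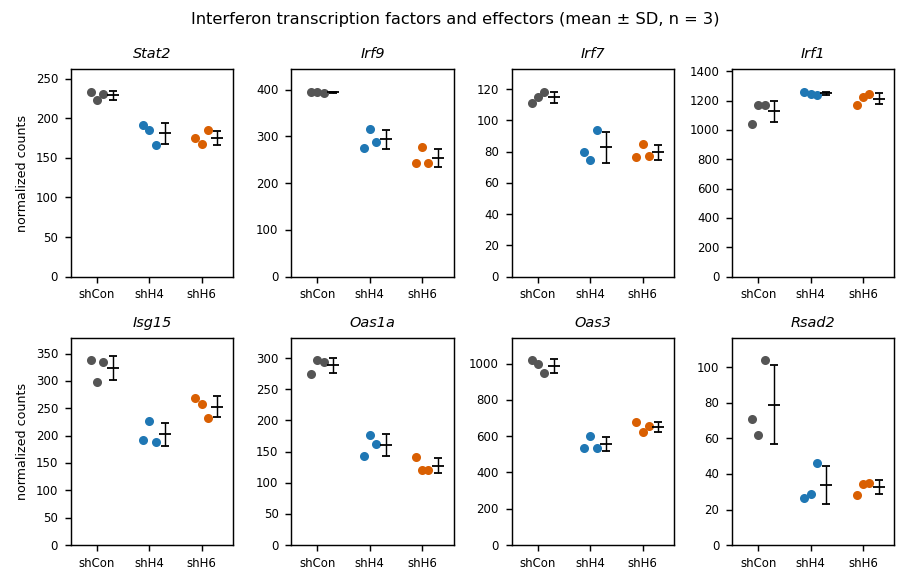
Normalized counts (y axis, from 0) of 4 interferon transcription factor genes and 4 antiviral effector genes in each library of shControl (shCon), shH4 and shH6, with the mean and SD of the 3 libraries beside the points. All genes but Irf1 are lower in both KD lines, Rsad2 and Oas1a to under 60% of the shControl mean.

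The 5 nucleic acid sensor genes were all below shControl in both hairpins, as were 48.8% of listed genes. In shH4 5 and in shH6 4 of them were called lower, against 46.5% and 46.9% of listed genes. Dhx58, which encodes LGP2, a regulator of the RNA sensors, had 195, 188 and 224 in shControl, 93.6, 118 and 136 in shH4 and 102, 105 and 83.5 in shH6. The KD libraries did not reach the shControl range. The difference was -0.81 (SE 0.14, adjusted p = 6.7e-05) in shH4 and -1.06 (SE 0.14, adjusted p = 5.2e-06) in shH6 by limma. Ifih1, which encodes the double-stranded RNA sensor MDA5, had 368, 390.03 and 373 in shControl, 315, 324 and 328 in shH4 and 270.03, 281 and 278 in shH6. The libraries of the hairpins did not overlap, those of shH6 being lower, but the difference between the hairpins missed the threshold. Ifih1 fell in both hairpins, with a difference of -0.23 (SE 0.067, adjusted p = 0.0054) in shH4 and -0.45 (SE 0.067, adjusted p = 2.4e-05) in shH6 by limma. Eif2ak2, the double-stranded RNA-activated kinase PKR, changed least of the sensors in shH4, with 1319, 1321 and 1289 in shControl, 1192, 1189 and 1241 in shH4 and 1134, 1123 and 1128 in shH6. It fell in both hairpins, by limma with a difference of -0.12 (SE 0.042, adjusted p = 0.015) in shH4 and -0.21 (SE 0.042, adjusted p = 2.4e-04) in shH6, and the shH4 call was lost when libraries were scaled to a common total (-0.09).

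Ifi205 and Ifi203 belong to a cluster of closely related DNA-binding HIN-200 proteins on chromosome 1, between which reads may be split. Ifi205 had 87.2, 57.8 and 72.8 in shControl, 23.3, 21.8 and 43.0 in shH4 and 46.4, 54.4 and 60.0 in shH6. The shH4 libraries were all below those of both other groups, while in shH6 1 library fell within the shControl range. It fell in shH4 and did not pass the threshold in shH6, with a difference of -1.33 (SE 0.23, adjusted p = 9.0e-05) in shH4 and -0.42 (SE 0.23, adjusted p = 0.087) in shH6 by limma. With 1 library left out, the shH6 difference ran from -0.28 without shControl replicate 1 to -0.57 without shControl replicate 2, and it was called without shControl replicate 2 and without shH4 replicate 3 (-0.42). It was also called with library weights (-0.57) and in a fit of the compared groups alone (-0.42). Ifi203 was at 82.6% and 88.1% of the shControl mean, called lower in both, and overlaps Mndal on the same strand.

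The antiviral effectors and regulators were the largest group, with 18 genes, and all but Parp12 were below shControl in both hairpins. In shH4, 17 were called lower and 1 higher, and in shH6, 15 lower and 1 higher, with medians of -0.50 and -0.47. Of listed genes 46.5% and 46.9% were called lower, and the 16 of 18 called in shH6 (88.9%) are below the 96.1% of the table. Isg15, the ubiquitin-like modifier whose promoter holds the longest run of ISRE cores, had 338, 298 and 335 in shControl, 191, 226 and 189 in shH4 and 269, 258 and 232 in shH6. All 3 groups were apart, with shH6 between the others. The difference from shControl was -0.68 (SE 0.093, adjusted p = 1.0e-05) in shH4 and -0.35 (SE 0.093, adjusted p = 0.0023) in shH6 by limma. Usp18, the protease that removes ISG15 from proteins, had 147, 110.2 and 142 in shControl, 99.5, 78.0 and 97.8 in shH4 and 113, 94.4 and 79.8 in shH6. One shH6 library was above the lowest shControl library, and the gene was called lower in both, with a difference of -0.53 (SE 0.15, adjusted p = 0.0041) in shH4 and -0.47 (SE 0.15, adjusted p = 0.0078) in shH6 by limma.

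All 4 listed oligoadenylate synthetase family genes, which make the activator of the nuclease RNase L or resemble those that do, fell in both hairpins. They are paralogs in clusters on chromosome 5, so that reads may be split between them and relatives. Oas1a had 275, 297 and 293 in shControl, 143, 177 and 162 in shH4 and 141, 121 and 120.1 in shH6. Its KD libraries were far below shControl and those of shH6 were all below those of shH4, a difference between hairpins that missed the threshold. Against shControl it fell, with a difference of -0.84 (SE 0.10, adjusted p = 2.8e-06) in shH4 and -1.18 (SE 0.10, adjusted p = 8.7e-08) in shH6 by limma. Oas3 had 1019.5, 996 and 946 in shControl, 534, 599 and 533 in shH4 and 679, 624 and 653 in shH6. The order of the hairpins was the opposite of that for Oas1a, with shH4 below shH6, with a difference of -0.83 (SE 0.060, adjusted p = 1.1e-08) in shH4 and -0.60 (SE 0.060, adjusted p = 3.9e-07) in shH6 by limma. Oasl2 had 137, 151 and 135 in shControl, 89.7, 97.8 and 122 in shH4 and 79.6, 81.8 and 79.8 in shH6, with every KD library below shControl, with a difference of -0.46 (SE 0.12, adjusted p = 0.0031) in shH4 and -0.80 (SE 0.12, adjusted p = 3.2e-05) in shH6 by limma. Oasl1 was at 54.4% and 54.7% of the shControl mean.

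Rsad2, which encodes viperin, had 71.1, 61.6 and 104 in shControl, 26.6, 28.6 and 46.0 in shH4 and 28.3, 34.6 and 34.9 in shH6. No KD library reached the lowest shControl library. The difference was -1.21 (SE 0.23, adjusted p = 1.8e-04) in shH4 and -1.22 (SE 0.23, adjusted p = 1.5e-04) in shH6 by limma, among the largest of the list in both hairpins. Ifi44, an interferon-induced gene, had 53.3, 77.1 and 39.9 in shControl, 36.5, 31.9 and 26.4 in shH4 and 18.4, 13.6 and 7.48 in shH6. All shH6 libraries were below all shH4 libraries, which were below shControl. The difference was -0.79 (SE 0.29, adjusted p = 0.018) in shH4 and -2.06 (SE 0.29, adjusted p = 1.3e-05) in shH6 by limma on few reads, down to 6 in a library, and in shH4 the call was lost without shControl replicate 2 (-0.54) or without shH4 replicate 3 (-0.67). Bst2, which encodes tetherin, a protein that holds budding virus at the membrane, had 629, 606 and 649 in shControl, 442, 460.5 and 491 in shH4 and 510.2, 419.7 and 438 in shH6. It fell to 74.0% and 72.6% of the shControl mean, with a difference of -0.44 (SE 0.073, adjusted p = 7.0e-05) in shH4 and -0.47 (SE 0.073, adjusted p = 3.6e-05) in shH6 by limma.

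Isg20 and Parp10 were called lower in shH4 and missed the threshold in shH6. Isg20, an RNA exonuclease, had 616, 667 and 614 in shControl, 499, 533 and 486 in shH4 and 617, 561 and 604 in shH6. It fell in shH4, while the shH6 libraries overlapped with shControl, with a difference of -0.32 (SE 0.062, adjusted p = 2.4e-04) in shH4 and -0.090 (SE 0.062, adjusted p = 0.17) in shH6 by limma. Parp10, an ADP-ribosyltransferase, had 979, 1003 and 1027 in shControl, 864, 856 and 865 in shH4 and 934, 968 and 954 in shH6. All KD libraries were below shControl, those of shH6 by little, with a difference of -0.22 (SE 0.045, adjusted p = 4.4e-04) in shH4 and -0.075 (SE 0.045, adjusted p = 0.12) in shH6 by limma, and the gene overlaps Plec on the same strand. At a common upper quartile both genes were called in shH6, Isg20 at -0.14 and Parp10 at -0.13, and with library weights Parp10 was too (-0.10). With 1 library left out, the shH6 difference of Isg20 ran from -0.12 to -0.050, the smallest without shH6 replicate 2, and neither gene was called. Parp12, an ADP-ribosyltransferase of the same family, had 871, 903 and 907 in shControl, 1058, 1054 and 1012 in shH4 and 964, 969.5 and 985 in shH6. It was the effector that rose, with every KD library above shControl, with a difference of 0.22 (SE 0.046, adjusted p = 4.1e-04) in shH4 and 0.12 (SE 0.046, adjusted p = 0.018) in shH6 by limma. The shH6 call for Parp12 was lost without shControl replicate 1 (0.10) and at a common upper quartile (0.071). The remaining effectors, Ifi27, Ifi35, Ifit2, Ifitm2, Ifitm10 and Sp100, were called lower in both hairpins, between -0.16 for Ifi35 and -0.62 for Ifitm10, both in shH6.

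Igtp, a GTPase that acts on vacuoles holding parasites, was the only listed gene of its kind. It had 175, 159.7 and 176 in shControl, 117, 123 and 116 in shH4 and 119.8, 126 and 113 in shH6. All KD libraries were below shControl, at 69.7% and 70.4% of its mean, with a difference of -0.52 (SE 0.10, adjusted p = 2.3e-04) in shH4 and -0.50 (SE 0.10, adjusted p = 2.7e-04) in shH6 by limma. In the annotation Igtp overlaps Irgm2 on the same strand.

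All 5 MHC class I genes fell in both hairpins, and for each the 6 KD libraries lay below the 3 shControl libraries, as they did for 42.8% of listed genes. H2-D1, a classical heavy chain and the member with the highest count, had 17650, 16584 and 17726 in shControl, 12110, 12994 and 12230 in shH4 and 13645, 13711 and 13477 in shH6. The shH4 libraries were lowest and the shH6 libraries lay between the groups, with a difference from shControl of -0.48 (SE 0.037, adjusted p = 2.5e-08) in shH4 and -0.35 (SE 0.037, adjusted p = 6.9e-07) in shH6 by limma. H2-K1, the other listed classical heavy chain, had 5106, 4722 and 5003 in shControl, 4116, 4445 and 4124 in shH4 and 4262, 4389 and 4138 in shH6. It fell in both hairpins, with a difference of -0.23 (SE 0.041, adjusted p = 1.4e-04) in shH4 and -0.21 (SE 0.041, adjusted p = 2.1e-04) in shH6 by limma, the libraries of which overlapped. B2m, the light chain that every class I molecule needs, had 7669.5, 7578 and 7492 in shControl, 6503, 6485 and 6537 in shH4 and 6094, 6301 and 5554 in shH6. All its shH6 libraries were below those of shH4, a difference that missed the threshold between the hairpins. B2m fell in both, with a difference of -0.22 (SE 0.040, adjusted p = 1.5e-04) in shH4 and -0.34 (SE 0.040, adjusted p = 1.9e-06) in shH6 by limma.

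H2-T23, the heavy chain of Qa-1, a ligand of the CD94/NKG2A receptor of natural killer cells, changed most among the class I genes. It had 554, 520.4 and 554 in shControl, 341, 354 and 371 in shH4 and 356, 371 and 367 in shH6. Its KD libraries were at 65.4% and 67.1% of the shControl mean, with a difference of -0.61 (SE 0.064, adjusted p = 6.3e-07) in shH4 and -0.57 (SE 0.064, adjusted p = 1.1e-06) in shH6 by limma. H2-M3, which presents formylated peptides, was at 84.0% and 87.3% of the shControl mean. The class I heavy chain genes are paralogs, and FVB/NJ carries another H2 haplotype than the C57BL/6J reference, so the split of reads between H2 genes is uncertain.

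**Figure D4:**
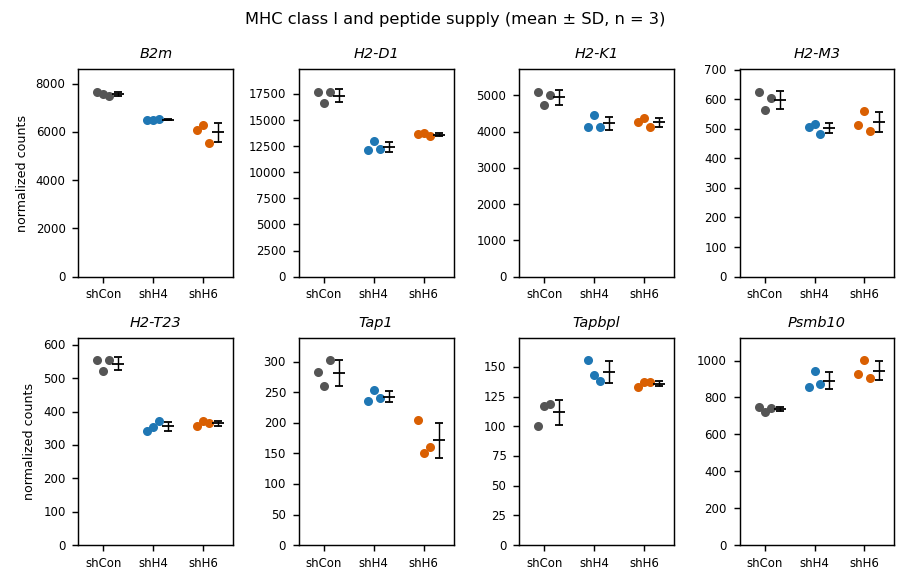
Normalized counts (y axis, from 0) of the 5 MHC class I genes and the 3 peptide supply genes in each library of shControl (shCon), shH4 and shH6, with the mean and SD of the 3 libraries beside the points. The class I genes and Tap1 are lower in the KD lines, Tap1 most in shH6, and Tapbpl and Psmb10 are higher.

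The 3 peptide supply genes did not share a direction. Tap1, a subunit of the peptide transporter, had 284, 260.1 and 303 in shControl, 236, 253 and 240.2 in shH4 and 204, 151 and 160.1 in shH6. All shH6 libraries were below all shH4 libraries, which were below shControl by little. It fell in shH6 and missed the threshold in shH4, with a difference of -0.21 (SE 0.11, adjusted p = 0.061) in shH4 and -0.72 (SE 0.11, adjusted p = 1.7e-05) in shH6 by limma. In shH4 the difference ran from -0.16 without shControl replicate 3 to -0.27 without shControl replicate 2, and it passed the threshold without shControl replicate 2 and without shH6 replicate 1 or 2 (-0.21 each). It also passed at a common upper quartile (-0.27), with library weights (-0.25) and in a fit of the compared groups alone (-0.21). Tap1 overlaps Psmb9 on the opposite strand, and whether reads were counted by strand is not given in the sources used here.

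Psmb10, a catalytic subunit of the immunoproteasome, rose, with 746, 722 and 744 in shControl, 857, 942 and 871 in shH4 and 929, 1003 and 905 in shH6. Every KD library was above shControl, with a difference of 0.27 (SE 0.055, adjusted p = 3.4e-04) in shH4 and 0.36 (SE 0.055, adjusted p = 2.7e-05) in shH6 by limma. Tapbpl, which encodes TAPBPR, an editor of class I peptides, had 99.8, 117 and 119 in shControl, 156, 143 and 138 in shH4 and 133, 137 and 137 in shH6. It also rose in both hairpins, with a difference of 0.38 (SE 0.11, adjusted p = 0.0036) in shH4 and 0.28 (SE 0.11, adjusted p = 0.018) in shH6 by limma, and the shH6 call was lost without shControl replicate 1 (0.20). Tapbpl overlaps Vamp1 on the opposite strand.

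H2-DMa, which loads MHC class II molecules, was the only listed class II gene and was low, with 29.4, 32.2 and 26.9 in shControl, 46.5, 33.2 and 44.1 in shH4 and 50.9, 45.0 and 41.0 in shH6. All KD libraries were above shControl, with a difference of 0.46 (SE 0.19, adjusted p = 0.026) in shH4 and 0.61 (SE 0.19, adjusted p = 0.0057) in shH6 by limma. In shH4 the call was lost without shControl replicate 1 (0.46) or 3 (0.40) and without shH4 replicate 1 (0.37) or 3 (0.41), and at a common upper quartile (0.40). H2-DMa overlaps Brd2, a listed gene, on the opposite strand, and an antisense gene on the same strand.

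The other 3 members match by symbol and encode no interferon-induced or class I protein. H2-Ke6, which encodes a steroid dehydrogenase of the MHC region, had 236, 279.8 and 257 in shControl, 202, 209 and 209.9 in shH4 and 215, 197 and 207 in shH6 and was called lower in both. Isg20l2, an exonuclease of ribosome maturation, had 1697, 1739 and 1829 in shControl, 2119.7, 2174 and 1993 in shH4 and 2135, 2194 and 2146 in shH6 and was called higher in both. Irf2bp1, a repressor that binds IRF2, had 657, 651 and 708 in shControl, 762, 792 and 654 in shH4 and 768, 775 and 818 in shH6. It rose in shH6 and missed the threshold in shH4, where 1 library lay within the shControl range, with a difference of 0.13 (SE 0.067, adjusted p = 0.076) in shH4 and 0.23 (SE 0.067, adjusted p = 0.0047) in shH6 by limma. With 1 library left out, the shH4 difference ran from 0.072 without shH4 replicate 2 to 0.21 without shH4 replicate 3. It was called without shH4 replicate 3, without shControl replicate 3 (0.17) and at a common total (0.15). Without these 3 genes, 34 of 41 members were called lower and 6 higher in shH4, and 30 lower and 6 higher in shH6. Of listed genes 46.5% and 46.9% were called lower. The share called was 97.6% in shH4 and 87.8% in shH6, against 95.7% and 96.1% of listed genes.

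Set directly against shH4, shH6 differed for 7 of the 44 members (15.9%), 5 higher and 2 lower in shH6, where 8.26% of listed genes differed (3.89% higher and 4.38% lower). Over all listed genes 53.0% of these calls were lower in shH6, and 42.1% when libraries were scaled to a common total. The shH6 libraries lay apart from the shH4 libraries for 18 members (40.9%), against 24.8% of listed genes. The median difference of the members, shH6 minus shH4, was -0.0041, and that of all genes was -0.0049. Tap1 differed by -0.51 (SE 0.11, adjusted p = 0.0056) and Ifi44 by -1.27 (SE 0.29, adjusted p = 0.011), both lower in shH6 by limma. Both were also further from shControl in shH6 than in shH4. Their identifiers in the table are ENSMUSG00000037321 and ENSMUSG00000028037.

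The other 5 were higher in shH6 and nearer to shControl there. Ifi205 differed by 0.91 (SE 0.23, adjusted p = 0.020), Isg15 by 0.33 (SE 0.093, adjusted p = 0.039) and Oas3 by 0.23 (SE 0.060, adjusted p = 0.022) by limma. For Isg20 the difference was 0.23 (SE 0.062, adjusted p = 0.027) and for H2-D1 it was 0.13 (SE 0.037, adjusted p = 0.038) by limma. Resf1 was also higher in shH6 than in shH4, by 0.19 (SE 0.043, adjusted p = 0.0098) by limma.

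The count of 7 rested on few libraries. It was 2 without shH4 replicate 1 (Oas1a and Tap1), 3 without shH4 replicate 3 and 4 without shH6 replicate 1. Tap1 was the only 1 of the 7 called under every alternative run. With no trend in the fit, Tap1 and Isg20 kept their call and the other 5 lost it, while Ifih1 and Parp10 gained one. With 1 library left out, Ifi44 lost its call without shH4 replicate 1 (-1.16). Ifi205 lost it without shH4 replicate 1 or 2 and without shH6 replicate 2 or 3, at 0.73 to 0.89. Oas3 lost it without shH4 replicate 1 or 3 and without shH6 replicate 1, at 0.20 to 0.21. Isg20 lost it without shH4 or shH6 replicate 1 or 3, at 0.20 to 0.22. Isg15, at 0.28 to 0.33, and H2-D1, at 0.11 to 0.13, lost it without shControl replicate 3, shH4 replicate 1 or 3, or shH6 replicate 1 or 2. Isg15 also lost its call in a fit of the compared groups alone. Some members that missed the threshold passed it elsewhere. Ifih1, Irf9, Oasl2, B2m and Nlrc5 did with library weights, B2m and Nlrc5 also without shH6 replicate 2, Oas1a without shH4 or shH6 replicate 1, and Parp10 under both other scalings. For such members a difference may remain. The 95% interval, not adjusted for the number of genes, ran from -0.074 to 0.10 for H2-K1, from -0.21 to -0.039 for B2m, from -0.23 to 0.14 for Stat2 and from 0.20 to 1.54 for Nlrc5.

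**Figure D5:**
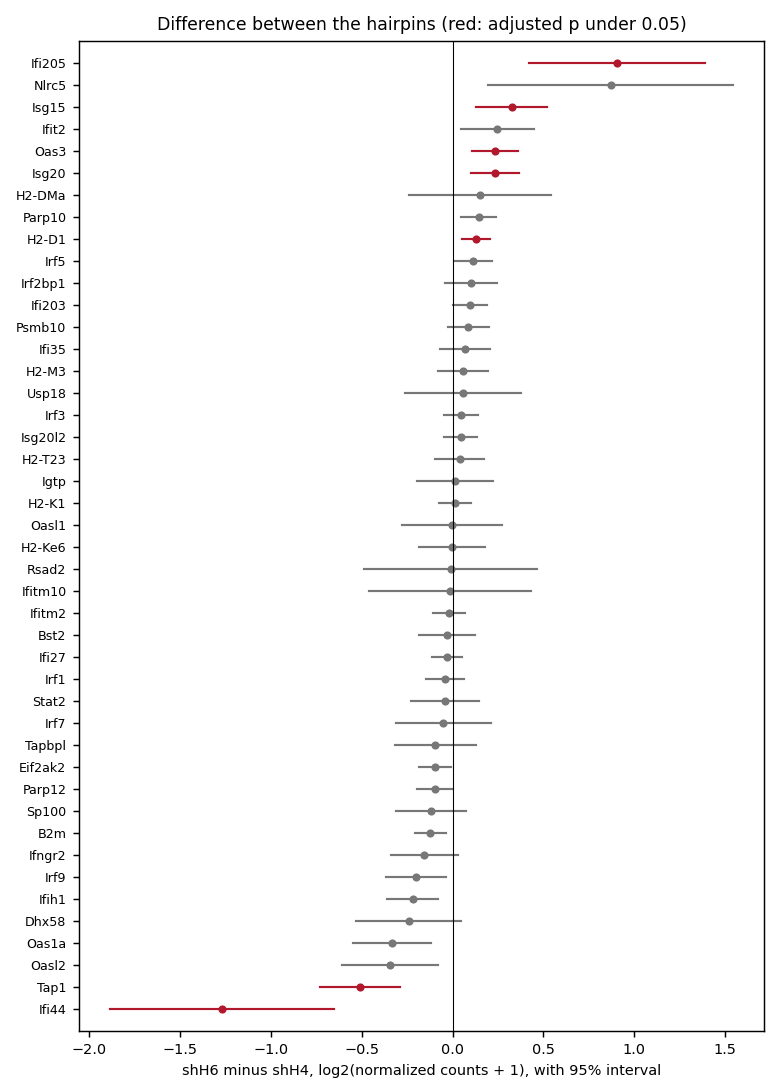
Difference between the hairpins, shH6 minus shH4, on the log2(normalized counts + 1) scale (x axis), for the 44 members in order of size, with the 95% interval of the fit. The 7 called members are red, from Ifi44 at -1.27 to Ifi205 at 0.91, and most grey intervals cross 0.

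Genes of the same pathways that the symbol rule leaves out were followed with a list of 94 symbols, 38 of them in the table. In each hairpin 22 of these were called lower and 15 higher, for a median of -0.18 (shH4) and -0.19 (shH6). The 37 of 38 called (97.4%) are near the share of the table, 95.7% in shH4 and 96.1% in shH6, while 57.9% were called lower, against 46.5% and 46.9%. Between the hairpins 6 differed (15.8%), against 8.26%. Among other interferon-inducible genes, 16 of 19 were called lower and 3 higher in each hairpin. Sp140, a reader of chromatin, differed by -0.98 in shH4 and -1.22 in shH6, and Trim30a, a regulator of inflammatory signalling, by -0.94 in shH4 and -0.82 in shH6. Cd274, which encodes PD-L1, fell in both, its normalized counts being 109.9 ± 5.20 (SD, n = 3) in shControl, 85.2 ± 12.8 in shH4 and 84.0 ± 6.33 in shH6. Slfn9, Trim56 and Mov10 were the 3 that rose.

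Of 10 signalling and sensing genes 4 were called lower and 5 higher in shH4, and 4 lower and 6 higher in shH6, near the shares over all listed genes. Tyk2, a kinase of the type I receptor, differed by -0.26 in shH4 and -0.23 in shH6, and Ticam1, the adaptor TRIF, by -0.41 in shH4 and -0.31 in shH6. Traf3, an adaptor in interferon induction, rose by 0.71 in shH4 and 0.65 in shH6, and Cgas, the sensor of cytosolic DNA, by 0.46 in shH4 and 0.56 in shH6. Of 9 antigen processing genes 7 were called higher in shH4 and 6 in shH6, where 49.2% and 49.1% of listed genes were. Erap1, the peptidase that trims class I peptides, rose by 0.34 in shH4 and 0.17 in shH6, while Rfx5, a factor of MHC promoters, fell, with differences of -0.33 in shH4 and -0.26 in shH6.

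Markers of cell types were checked beside these results. Of 6 mammary epithelial markers Krt8 and Krt18 were in the table, with summed normalized counts between 26580 and 29000 in shControl, 22390 to 23860 in shH4 and 24790 to 27870 in shH6. Both were called lower in shH4 only, and both were higher in shH6 than in shH4. Of 10 leukocyte markers, Cd14, Cd68 and Itgb2 were in the table and all 3 were called lower in both hairpins, as most members were, with summed levels of 3948 to 4124 in shControl, 2765 to 2920 in shH4 and 3210 to 3422 in shH6. Itgb2 made up most of that sum, while Cd68 fell to 35.5% and 33.7% of its shControl mean, with a difference of -1.50 in shH4 and -1.57 in shH6. Of 3 endothelial markers Cdh5 and Pecam1 summed to 20.2 to 30.8 in shControl, 174 to 208 in shH4 and 26.01 to 31.2 in shH6. Of 5 mesenchymal markers Pdgfra was in the table, at 69.7 to 108 in shControl, 119 to 162 in shH4 and 128 to 157 in shH6, and was called higher in both. No listed marker was at 0 in any library, the other markers were not analysed here, and the part of these markers in the result was not tested.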

How the data were processed

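RNA was measured in 9 libraries (TruSeq Stranded Total RNA) of 6DT1 cells, 3 per group, grouped by their titles. The submitters' processing notes name Partek, STAR 2.7.8a, DESeq2 and mm39. The counting step, its annotation and its use of strand are not given in the sources used here. The deposited values are a signal per gene, counts that the authors divided by a size factor per library (median ratio). Below 150 normalized counts 75.0% of the values were whole multiples of 1 read within 0.02 reads, so whole reads were not recovered and no count test was run. The size factors read from these steps gave the estimated reads per library. These cover the listed genes only, and the libraries with more reads give the steadier values.

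Of 5301 identifiers, 5258 matched GENCODE M21, from which symbols, types, lengths and overlaps came. The members, roles, pathway list and markers were chosen with earlier results of these data known. The fit was made by limma 3.58.1 (R 4.3.3) to log2(value + 1), with a mean per group over all 9 libraries, a trend in the empirical Bayes step, no filter on low values and Benjamini-Hochberg adjustment over the table. The fit was tested on simulated data with normal errors in which few genes changed. Most genes of the table here were called against shControl, so the simulation does not cover such a table. Per-library values are given for a set list of pathway genes, for the members of each role with the largest and smallest change, for those higher in both hairpins and for those that differed between the hairpins. Coordinates are those of RefSeq on GRCm38.p6. Alternatives were a pseudocount of 10, a mean of at least 10 normalized counts, scaling to a common upper quartile or total, a fit of the compared groups alone, a block on the replicate number, library weights, no trend and leaving out each library. Leaving out the members matched by symbol only was added after seeing the data.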

Additional observations from a re-analysis of the deposited data

Results flagged for a closer look

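For 7 of 44 members (15.9%), against 8.26% of listed genes, shH6 differed from shH4 by limma's direct test on 3 libraries each. Only Tap1 kept its call under every alternative, and the count was 4 with no trend. In shH6, Tap1 was lower by a log2 difference of -0.51 and Ifi44 by -1.27. In the other direction, shH6 exceeded shH4 for Ifi205 (0.91), Isg15 (0.33), Oas3 (0.23), Isg20 (0.23) and H2-D1 (0.13). Itgb2, Krt8, Krt18, Cdh5 and Pecam1, markers of other cell types or of the epithelium, also differed between the hairpins, and their part in these results was not tested.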

How the results depend on the processing

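Of 1434 values of 84 results under 18 alternatives, 1347 stayed close. There, tested values kept direction and call, medians moved by at most the SD between libraries and counts by at most 1.5 times. Many of these values could not move. A difference stays the same when a library of the group not compared is left out. It also stays the same with the block, no trend, the compared groups alone or the filter on the mean. In those runs only calls and their counts can change. The median between the hairpins, near 0, changed sign under some alternatives. None of the 1275 values of single genes reversed, 53 lost their call and 20 gained one. The member median in shH4, -0.33, was -0.39 at a common upper quartile, -0.30 at a common total and -0.43 without the members matched by symbol only, an alternative added after seeing the data, and ran from -0.36 to -0.31 with 1 library left out. The median in shH6, -0.36, was -0.41 and -0.31 under the 2 scalings and ran from -0.39 to -0.34 with 1 library left out. The median of shH6 minus shH4 ran from -0.015 to 0.024, and was 0.024 without shH6 replicate 3. The count of members called between the hairpins, 7, was 12 with library weights and 4 with no trend (2 of the 7, Isg20 and Tap1, with Ifih1 and Parp10), and ran from 2 to 7 with 1 library left out. Over all genes that count, 438, was 684 with library weights, 290 without shH4 replicate 1 and 287 without shH6 replicate 1. The cause of these changes was not tested. Against shControl the counts ran from 39 to 43 in shH4 and from 34 to 40 in shH6 with 1 library left out, while the share of all genes called ran from 87.9% to 97.0% and from 88.4% to 95.9%.

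Libraries with the same replicate number correlated between -0.15 and 0.11 in their deviations from the group means, with 1 of 9 pairs over 0.1, so the numbers were not taken to pair them. With the replicate number as a block, 42 members were called in shH4, 39 in shH6 and 5 between the hairpins (Ifi205, Ifi44, Isg20, Oas3 and Tap1), against 95.3%, 95.7% and 7.64% of all genes.

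In all, 6 members had under 30 estimated reads in some library (Nlrc5, Ifi44, Ifi205, Ifitm10, Rsad2 and H2-DMa), where depth limits precision. In the annotation 25 members overlap another gene, 10 of them on the same strand. Genes outside the table could not be compared.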

Other observations

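The ISRE core also stood in the promoters of 134 listed genes that are no members. Their median difference from shControl was -0.12 in shH4 and -0.14 in shH6, and 68 of them were called lower and 59 higher in shH4. The 3593 other listed genes without the core had medians of 0.11 and 0.10, with 1636 called lower and 1817 higher in shH4. Listed genes with the GAS core, 299 outside the members, had medians of 0.13 in each hairpin, against 0.10 and 0.094 for the 3428 without it. These are descriptions of genes selected for a difference from shControl, and no test was run on them.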
